A study of Mus musculus with 4 samples.

Results

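Transcripts of the enzymes that carry glucose to lactate were compared between mouse embryonic fibroblasts without and with Pf1. The set was given by name as Hk2, Gpi1, Pfkl, Pfkp, Aldoa, Tpi1, Pgk1, Pgam1, Eno1 and Ldha. Its members were the probe sets whose platform annotation names 1 of these genes and no other gene. Of the 10 enzymes, 8 had such a probe set, with 20 probe sets between them, among 18194 genes measured in all. Gpi1 and Eno1 had no probe set that names the gene alone in the annotation used here and were not analysed. The fibroblasts (MEFs, primary cells grown from minced embryo torsos) came from embryos of day 13.5 or 14.5 and were taken at passage 2 to 3. Lines 7706-2 and 7706-4 were Pf1 -/- (called Pf1 KO lines 2 and 4 here), and lines 7706-5 and 7706-6 were Pf+/+ (Pf1 WT lines 5 and 6), with 1 array per line. All 4 lines were grown in serum-supplemented DMEM at 6% oxygen. The gene Phf12 encodes Pf1, which has PHD fingers and works with Sin3 corepressors, and the series concerns nucleolar integrity. The labels leave out how the Pf1 allele was made and whether the lines came from different embryos. Every p-value therefore reflects variation among these 4 cultures.

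Glycolysis splits glucose into pyruvate in the cytosol, and lactate dehydrogenase then turns pyruvate into lactate. Hexokinase and phosphofructokinase catalyse the steps at which flux is chiefly controlled, whereas most of the other steps run near equilibrium. Most of these enzymes are encoded by several genes with tissue-specific forms. The hypoxia-inducible factor (Hif) and Myc are both known to raise transcription of many of these genes, and proliferating fibroblasts in culture use the pathway heavily.

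The deposited values are log2 signals from which each probe set's median over the 4 arrays had been subtracted. A value of 0 is thus the middle of the 4 arrays, and the level of one gene cannot be set against that of another. By construction the 2 middle arrays of a probe set lie equally far above and below 0. Gene values are means over a gene's probe sets, differences are Pf1 KO minus Pf1 WT on the log2 scale with the standard error (SE) of the limma fit, and n = 2 lines per genotype. A gene was called at a Benjamini-Hochberg adjusted p under 0.05 over all genes.

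Of the 8 measured enzymes, 1 fell in the Pf1 KO lines, none rose and 7 did not pass the test. The enzyme that fell was Pfkp, the platelet-type phosphofructokinase, at 1.85-fold lower. Over all genes, 6.95% were called lower, 5.21% higher and 12.2% in either direction. All 8 differences were negative, between -0.88 and -0.059, with a median of -0.22, while 50.8% of all genes had a negative difference and the median over all genes was -0.0027. The Pf1 KO lines both lay below both Pf1 WT lines for 7 of the 8 enzymes, with no overlap, which 29.5% of all genes also showed in that direction and 28.7% in the other. Because effects shared by many genes of a line move them together, these 8 directions are not 8 separate observations. In RNA from whole cultures, fewer cells of a type and less transcript per cell cannot be told apart.

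**Figure D1:**
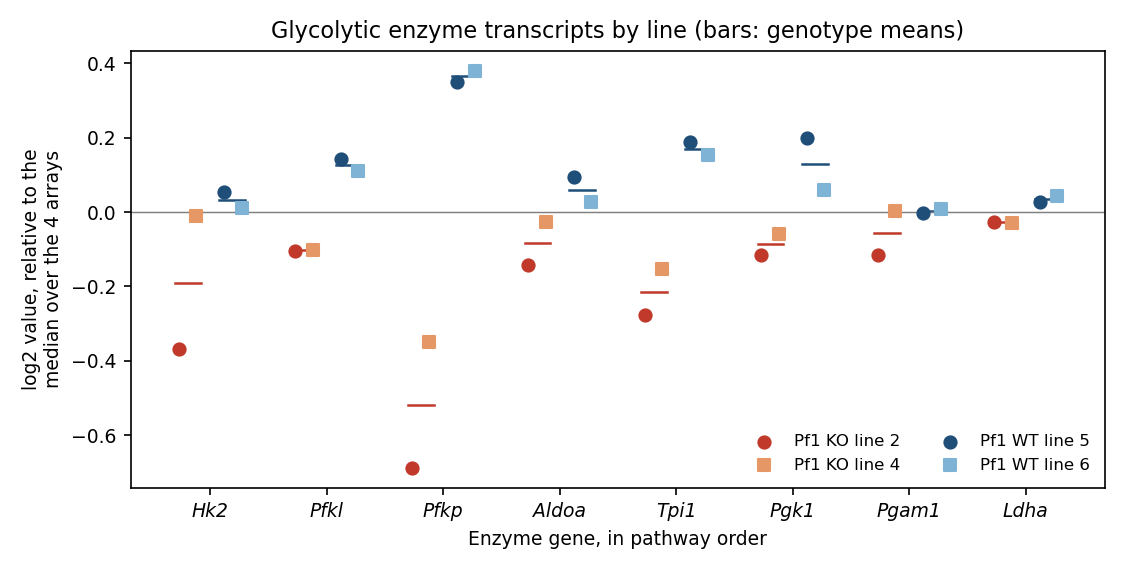
The vertical axis gives the log2 value relative to the median over the 4 arrays, for each enzyme gene in pathway order. Points are single lines (Pf1 KO lines 2 and 4 at the left of each gene, Pf1 WT lines 5 and 6 at the right) and bars are genotype means of 2 lines. Pfkp has the widest gap between genotypes, and Pgam1 is the gene whose lines overlap.

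Hk2, the hexokinase that traps glucose as glucose 6-phosphate and binds mitochondria, stood at -0.37 and -0.010 in Pf1 KO lines 2 and 4, against 0.052 and 0.010 in Pf1 WT lines 5 and 6. Line 2 alone was low, and line 4 lay close to the Pf1 WT lines. The difference was -0.22 ± 0.138 SE (limma adjusted p = 0.369), with a 95% interval from -0.58 to 0.13. It rests on line 2, since it was -0.042 without that line and -0.40 without line 4.

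Phosphofructokinase commits sugar to glycolysis and is inhibited by ATP and citrate. Pfkp stood at -0.69 and -0.35 in Pf1 KO lines 2 and 4, against 0.35 and 0.38 in Pf1 WT lines 5 and 6. The Pf1 WT lines lay close together, and the Pf1 KO lines were both lower but apart from each other by 0.34. The difference was -0.88 ± 0.133 SE (limma adjusted p = 0.0245), with a 95% interval from -1.22 to -0.54. With 1 line left out the call was kept only without Pf1 KO line 4 (-1.05, limma adjusted p = 0.0461), and the adjusted p was 0.107 without Pf1 KO line 2, 0.117 without Pf1 WT line 5 and 0.0867 without Pf1 WT line 6.

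The liver-type enzyme gene Pfkl stood at -0.11 and -0.10 in Pf1 KO lines 2 and 4, against 0.14 and 0.11 in Pf1 WT lines 5 and 6. Both genotypes were tight and did not overlap, and the difference of -0.23 ± 0.0789 SE was not called (limma adjusted p = 0.131, 95% interval -0.43 to -0.028). The 2 genes were also set against each other within each array. Pfkp minus Pfkl was -0.58 and -0.25 in the Pf1 KO lines and 0.21 and 0.27 in the Pf1 WT lines. This difference between the paralogues was 0.65 lower on the log2 scale in the Pf1 KO lines (-0.65), and the exact two-sided permutation test gave p = 0.333, the smallest that 2 lines against 2 allow.

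There were 3 probe sets named for each of these genes, and they did not give equal values within a gene. For Pfkp, 1430634_a_at stood at -0.87 and -0.50 in Pf1 KO lines 2 and 4, against 0.50 and 0.57 in Pf1 WT lines 5 and 6, a difference of -1.22 ± 0.149 SE (limma adjusted p over all probe sets = 0.0204). Probe set 1416069_at differed by -0.99 ± 0.168 (limma adjusted p = 0.0341) and 1437759_at by -0.45 ± 0.105 (limma adjusted p = 0.0665). All 3 Pfkp probe sets were therefore lower in both Pf1 KO lines, by 1.36-fold to 2.33-fold. For Pfkl, 1439148_a_at differed by -0.40 ± 0.091 (limma adjusted p = 0.061) and 1450269_a_at by -0.27 ± 0.0939, while 1453541_at overlapped between the genotypes at -0.020 ± 0.0915. The gene mean of Pfkl thus averages 2 lower probe sets with 1 near 0.

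The promoter windows of this pair are given because the paralogues catalyse the same step and 1 of them was called. Each runs from 250 bases before to 50 after the annotated RefSeq start on GRCm38.p6, 5′ to 3′, at chr13:6648722-6649021 (minus strand) for Pfkp and chr10:78009758-78010057 (minus strand) for Pfkl. Capitals mark matches, on either strand, to ACGTG or GCGTG, the letters at the core of the Hif response element.
Pfkp: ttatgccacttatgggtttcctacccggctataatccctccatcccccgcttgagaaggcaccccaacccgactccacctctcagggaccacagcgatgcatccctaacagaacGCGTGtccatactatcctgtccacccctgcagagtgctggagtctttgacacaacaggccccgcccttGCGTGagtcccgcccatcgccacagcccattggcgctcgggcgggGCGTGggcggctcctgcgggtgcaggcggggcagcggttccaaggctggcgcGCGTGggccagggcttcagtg
Pfkl: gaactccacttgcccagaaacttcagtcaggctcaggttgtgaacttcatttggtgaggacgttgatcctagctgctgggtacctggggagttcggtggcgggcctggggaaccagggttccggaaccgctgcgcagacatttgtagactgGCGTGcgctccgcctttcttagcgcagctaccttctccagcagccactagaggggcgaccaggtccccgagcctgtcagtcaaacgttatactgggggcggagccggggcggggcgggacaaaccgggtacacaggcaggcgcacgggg
The Pfkp window held 4 matches to GCGTG and 0 to ACGTG, and the Pfkl window held 1 to GCGTG and 0 to ACGTG. Among all 32851 promoter windows of the RefSeq table, 32.4% held GCGTG, 19.6% held ACGTG and 43.8% held either. A match to 5 letters is a description of the window and not evidence of a bound site.

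In the middle of the pathway the sugar is cut into trioses. Aldoa, the aldolase of muscle and most other tissues, stood at -0.14 and -0.026 in Pf1 KO lines 2 and 4, against 0.094 and 0.026 in Pf1 WT lines 5 and 6. Line 2 was the lowest and line 4 lay near 0. The difference was -0.14 ± 0.0889 SE (limma adjusted p = 0.362). All 5 of its probe sets were negative, between -0.24 and -0.068. All 5 are also of the _x_at type, whose probes can match other transcripts.

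Tpi1, the isomerase that interconverts the 2 trioses, stood at -0.28 and -0.15 in Pf1 KO lines 2 and 4, against 0.19 and 0.15 in Pf1 WT lines 5 and 6. The genotypes did not overlap. Its difference of -0.38 ± 0.0882 SE was the largest after Pfkp among the 8 enzymes, with a 95% interval from -0.61 to -0.16, and it fell just short of the threshold (limma adjusted p = 0.0545). The 3 Tpi1 probe sets lay between -0.42 and -0.35, the closest to one another of any enzyme with several. The one at -0.35 is of the _x_at type. Tpi1 passed after quantile normalisation of the arrays (-0.39, limma adjusted p = 0.0407) and after setting array medians and spreads equal (-0.39, limma adjusted p = 0.0449). It did not pass in the other runs on all 4 lines that measured it. The limma adjusted p was 0.0585 with the median over probe sets, 0.0596 with array weights and 0.0517 with robust eBayes. It was 0.0528 without _x_at and _s_at probe sets. Without moderation, ordinary least squares gave an adjusted p of 0.221. With 1 line left out the Tpi1 difference lay between -0.45 and -0.32.

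**Figure D2:**
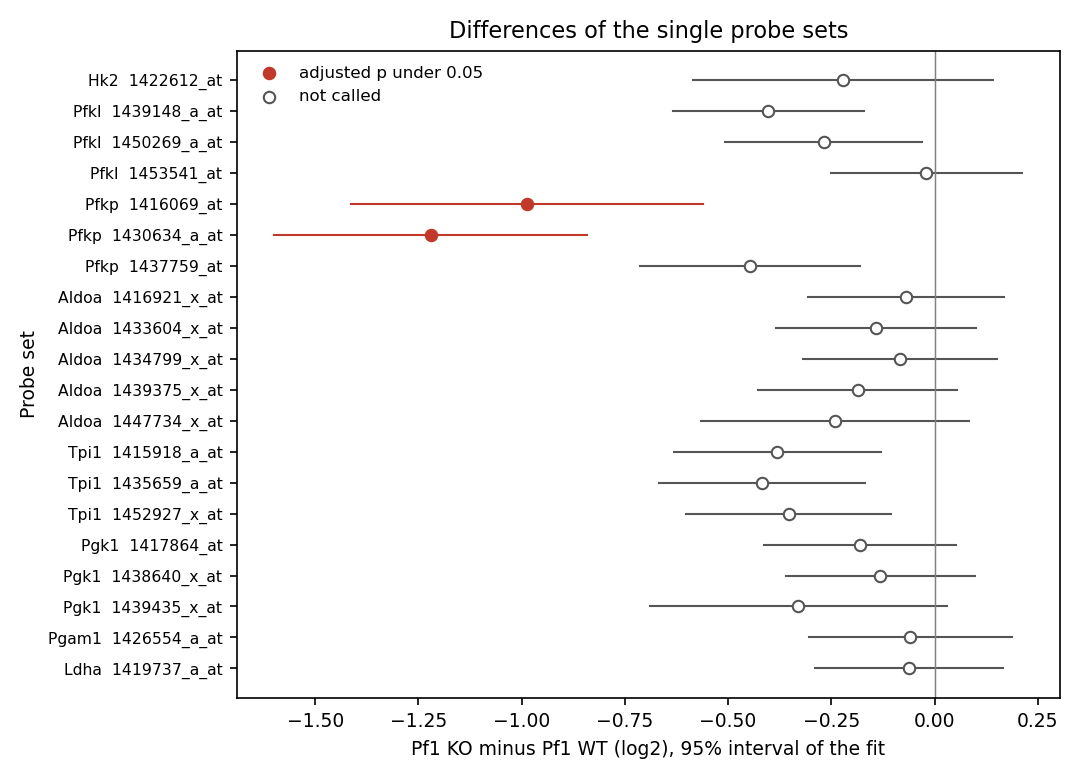
Each row is 1 of the 20 probe sets of the 8 enzymes, in pathway order from top to bottom, and the horizontal axis gives Pf1 KO minus Pf1 WT (log2) with the 95% interval of the limma fit. Filled points passed an adjusted p under 0.05, which 2 Pfkp probe sets did, and all 20 points lie below 0.

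The later stages yield ATP and end in lactate. Pgk1, the kinase that makes the first ATP of the pathway, stood at -0.11 and -0.058 in Pf1 KO lines 2 and 4, against 0.20 and 0.058 in Pf1 WT lines 5 and 6. The genotypes did not overlap, and Pf1 WT line 5 stood apart at the high end. The difference was -0.21 ± 0.0916 SE (limma adjusted p = 0.203), with 3 probe sets between -0.33 and -0.13. Both ends of that range are probe sets of the _x_at type, and the plain 1417864_at gave -0.18. Pgam1, which moves the phosphate of 3-phosphoglycerate, stood at -0.11 and 0.0027 in the Pf1 KO lines, against -0.0027 and 0.0078 in the Pf1 WT lines. Pf1 KO line 4 lay between the Pf1 WT lines, and line 2 was lower than all of them. Its difference was -0.059 ± 0.0867 SE (limma adjusted p = 0.728, 95% interval -0.28 to 0.16), and it was 0.00016 without that line.

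Ldha, the lactate dehydrogenase subunit of anaerobic tissues, stood at -0.027 and -0.029 in Pf1 KO lines 2 and 4, against 0.027 and 0.043 in Pf1 WT lines 5 and 6. The genotypes were separate but close. The difference was -0.063 ± 0.0785 SE (limma adjusted p = 0.673), and its 95% interval from -0.26 to 0.14 leaves out a decrease of the size seen for Pfkp. Ldha and Pgam1 each had 1 probe set.

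The promoter of Ldha is shown as the enzyme with the most of these letters and a difference near 0, at chr7:46845554-46845853 (plus strand, GRCm38.p6, RefSeq, the first of its 2 listed starts). Capitals mark the same letters as above.
Ldha: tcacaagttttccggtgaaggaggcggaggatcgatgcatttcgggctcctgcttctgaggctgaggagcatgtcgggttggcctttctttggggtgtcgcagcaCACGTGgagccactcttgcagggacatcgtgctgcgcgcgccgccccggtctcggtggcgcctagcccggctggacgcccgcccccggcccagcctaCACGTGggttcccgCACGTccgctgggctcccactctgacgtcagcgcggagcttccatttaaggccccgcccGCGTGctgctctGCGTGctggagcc
It held 5 matches to ACGTG and 2 to GCGTG. Of the 5, 4 come from 2 copies of the palindrome CACGTG, the E-box read by Myc and Max, each of which matches ACGTG on both strands. CACGTG was in 7.15% of all promoter windows and in 1 of the 15 windows listed for the 10 enzymes, that of Ldha. Either ACGTG or GCGTG was in 12 of these 15 windows, which belong to 8 of the 10 genes. The windows of Gpi1 and Tpi1 held neither.

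Over the probe sets, 2 of 20 were called lower, both of Pfkp, against 4.4% of all 45037 non-control probe sets (8.32% were called in either direction). All 20 had a negative difference, and 18 of 20 did not overlap between the genotypes, which 26.3% of all probe sets showed in that direction. Line 2 was lower than line 4 for 7 of the 8 enzymes, Ldha being the exception. This order was not counted over all genes. The values of all probe sets spread more widely in Pf1 KO line 2 (standard deviation 0.244) than in line 4 (0.202). The median over the 8 enzymes, relative to the Pf1 WT mean, was -0.24 in Pf1 KO line 2 and -0.14 in line 4.

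For 6 of the 8 enzymes the 95% interval of the gene mean left out a decrease of 1.5-fold or more, the exceptions being Pfkp and Tpi1. For Hk2 it did so narrowly, with a lower end of -0.575. Single probe sets of Pfkl (1439148_a_at, lower end -0.63) and Pgk1 (1439435_x_at, lower end -0.69) did not leave out such a decrease. The 5 genes whose values over the 4 lines lay nearest to the mean of the 8 enzymes, among 17994 genes outside all lists, were Yeats2, Sumo3, Gm38403, Kmt5c and Prm3, at root mean square distances between 0.0065 and 0.018. The mean profile was -0.23 and -0.091 in Pf1 KO lines 2 and 4, against 0.13 and 0.099 in Pf1 WT lines 5 and 6. Yeats2, the nearest, differed by -0.28 ± 0.0913 SE (limma adjusted p = 0.114). None of the 5 was called, and since they were picked for likeness to this profile, that is no separate observation.

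The other genes of glycolysis were examined from a separate list. Of 22 genes, 20 had a probe set naming the gene alone. Of these 20, 3 fell, 2 rose (Eno3 and Pgam5) and 15 did not pass, with a median of -0.20. Pgam5 is listed as a member of the mutase family and takes no part in glycolysis itself. Over all genes, 6.95% were called lower and 5.21% higher, the shares to set beside this and the later list counts. Hk1, the widely expressed hexokinase, stood at -0.31 and -0.22 in Pf1 KO lines 2 and 4, against 0.20 and 0.31 in Pf1 WT lines 5 and 6, and fell 1.43-fold (-0.52 ± 0.0893 SE, limma adjusted p = 0.0311). The genotypes did not overlap.

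Aldoc, the aldolase of brain, stood at -1.09 and -0.72 in Pf1 KO lines 2 and 4, against 0.87 and 0.72 in Pf1 WT lines 5 and 6. All 4 values were far from 0, and it fell 3.24-fold (-1.70 ± 0.148 SE, limma adjusted p = 0.0132). Aldoc and Phf12 share chromosome 11, with 15 protein-coding genes between them in RefSeq GRCm38.p6. Of these, 14 were measured and 2 were called lower, where 6.95% of all genes were called lower. The 2 were Flot2 (-0.49) and Proca1 (-0.62), which are named here because their values were seen. The median of the 14 was -0.18, within a range of -0.62 to 0.38. The part that this position has in the Aldoc difference was not tested. The first listed promoter window of Aldoc, which had the largest decrease of the pathway, is at chr11:78322823-78323122 (plus strand, GRCm38.p6, RefSeq), with the same letters in capitals.
Aldoc: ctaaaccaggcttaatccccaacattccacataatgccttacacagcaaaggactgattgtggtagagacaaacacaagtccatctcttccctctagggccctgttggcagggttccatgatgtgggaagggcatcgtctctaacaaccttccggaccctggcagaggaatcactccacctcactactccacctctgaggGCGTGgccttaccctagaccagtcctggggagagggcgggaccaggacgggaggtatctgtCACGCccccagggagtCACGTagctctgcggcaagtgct
This window held 1 match to ACGTG and 2 to GCGTG.

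Of the 3 enolase genes measured, 1 fell, 1 rose and Eno4 did not pass (-0.028, limma adjusted p = 0.896). Eno2, the neuronal form, stood at -0.36 and -0.33 in Pf1 KO lines 2 and 4, against 0.33 and 0.38 in Pf1 WT lines 5 and 6, and fell 1.62-fold (-0.70 ± 0.0813 SE, limma adjusted p = 0.0167). Eno3, the muscle form, stood at 1.22 and 1.05 in Pf1 KO lines, against -1.51 and -1.05 in Pf1 WT lines, and rose 5.34-fold (2.42 ± 0.172 SE, limma adjusted p = 0.0103). Each genotype was separate from the other for both genes. Of 15 skeletal muscle markers, only Acta1 was called (3.14), and the median of the list was 0.022. Of 8 neuronal markers, Stmn2 fell (-2.21) and Nefm rose (1.10). Their part in the enolase differences was not tested.

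Pgam5, a mitochondrial phosphatase of the mutase family that takes no part in glycolysis itself, rose close to the threshold (0.64 ± 0.141 SE, limma adjusted p = 0.0489). The other phosphofructokinase, Pfkm, differed by -0.37 ± 0.0867 SE (limma adjusted p = 0.0581), and was called lower after quantile normalisation and after setting array medians and spreads equal. Gapdh, measured here by 3 control probe sets of the array, stood at -0.20 and -0.088 in Pf1 KO lines 2 and 4, against 0.17 and 0.088 in Pf1 WT lines 5 and 6 (-0.27 ± 0.0896 SE, limma adjusted p = 0.12). Pkm, the pyruvate kinase of most tissues, differed by -0.26 ± 0.0919 SE (limma adjusted p = 0.14). Neither was called, and for both the 2 genotypes did not overlap.

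**Figure D3:**
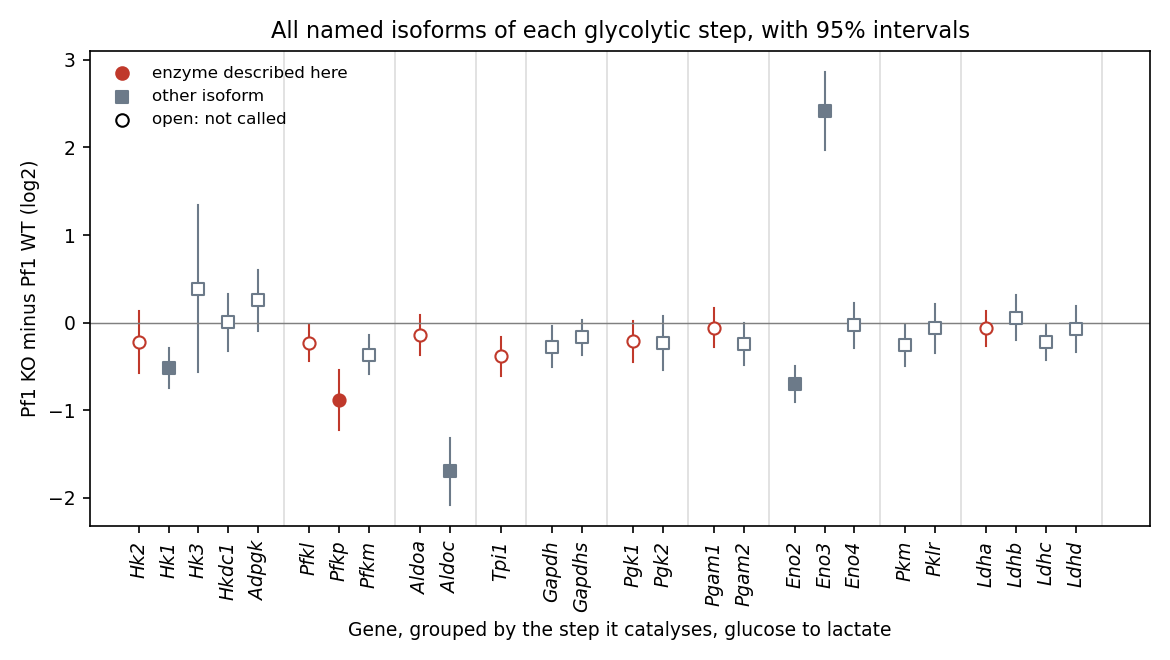
The vertical axis gives Pf1 KO minus Pf1 WT (log2) with 95% intervals for 26 measured genes. They are grouped by the step to which their family was assigned, from glucose at the left to lactate at the right. Not every family member need catalyse that step. Circles are the 8 enzymes described first, squares are other genes, and filled symbols passed an adjusted p under 0.05. Pfkp, Hk1, Aldoc and Eno2 are filled below 0 and Eno3 above it.

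Carriers at either end of the pathway were among the genes that fell. Of 12 genes of glucose and lactate transport, 4 fell, none rose and 8 did not pass, with a median of -0.34. The shares over all genes were 6.95% called lower and 5.21% higher. Slc2a3, the high-affinity glucose transporter Glut3, stood at -0.95 and -0.69 in Pf1 KO lines 2 and 4, against 0.82 and 0.62 in Pf1 WT lines 5 and 6, and fell 2.91-fold (-1.54 ± 0.128 SE, limma adjusted p = 0.0124). Slc2a6, a transporter of the same family, fell 1.99-fold (-0.99 ± 0.113 SE). Slc2a1, the widely expressed transporter Glut1, was not called (-0.33 ± 0.111 SE, limma adjusted p = 0.123). The monocarboxylate transporter gene Slc16a1 (-0.64 ± 0.106 SE) and Bsg (-0.66 ± 0.119 SE), which encodes its chaperone basigin, fell together, with limma adjusted p of 0.0286 and 0.0336. Slc16a3, the hypoxia-induced lactate exporter, stood near 0 (-0.017, limma adjusted p = 0.941).

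Among 11 regulators of flux into and out of the pathway, 4 fell, 2 rose and 5 did not pass, with a median of -0.13. Among all genes, 6.95% were called lower and 5.21% higher. Those that fell act on pyruvate dehydrogenase in opposite directions. They were the inhibiting kinases Pdk1 (-0.89 ± 0.103 SE, limma adjusted p = 0.0167) and Pdk3 (-0.66 ± 0.0866 SE), and the activating phosphatases Pdp1 (-0.82 ± 0.0997 SE) and Pdp2 (-0.91 ± 0.114 SE). Pdk4, a further kinase, and Tigar, a phosphatase that lowers fructose 2,6-bisphosphate, rose (1.90 ± 0.387 SE and 0.58 ± 0.101 SE, limma adjusted p = 0.0422 and 0.0318) and are named because their values were seen. Pdk4 stood at 1.73 and 0.58 in Pf1 KO lines 2 and 4, against -0.92 and -0.58 in Pf1 WT lines 5 and 6. Of the Pfkfb genes, which set the level of fructose 2,6-bisphosphate, the 3 measured were not called (0.24 for Pfkfb2, -0.085 for Pfkfb3 and -0.13 for Pfkfb4).

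Glycogen genes branch from glucose 6-phosphate. Of 13 measured, 4 fell and none rose, with a median of -0.29. For this and the next lists, the shares over all genes were 6.95% called lower and 5.21% higher. The branching enzyme Gbe1 fell 3.35-fold (-1.74 ± 0.19 SE, limma adjusted p = 0.016), the phosphorylase Pygl 2.43-fold (-1.28 ± 0.242 SE), the synthase Gys1 1.68-fold (-0.75 ± 0.113 SE) and the phosphoglucomutase Pgm1 1.64-fold (-0.71 ± 0.0925 SE). Of 8 gluconeogenesis genes 2 fell, the mitochondrial carboxykinase Pck2 (-1.87 ± 0.158 SE, limma adjusted p = 0.0125) and the glucose 6-phosphate translocase Slc37a4 (-0.64 ± 0.0825 SE). None of 8 pentose phosphate genes was called by limma, with 1 lower and 1 higher at an unadjusted p under 0.05, and their median was -0.0056. Of 19 genes of pyruvate dehydrogenase and the tricarboxylic acid cycle, Dlat rose (0.55 ± 0.0992 SE, limma adjusted p = 0.0328), 18 did not pass and the median was 0.030.

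**Figure D4:**
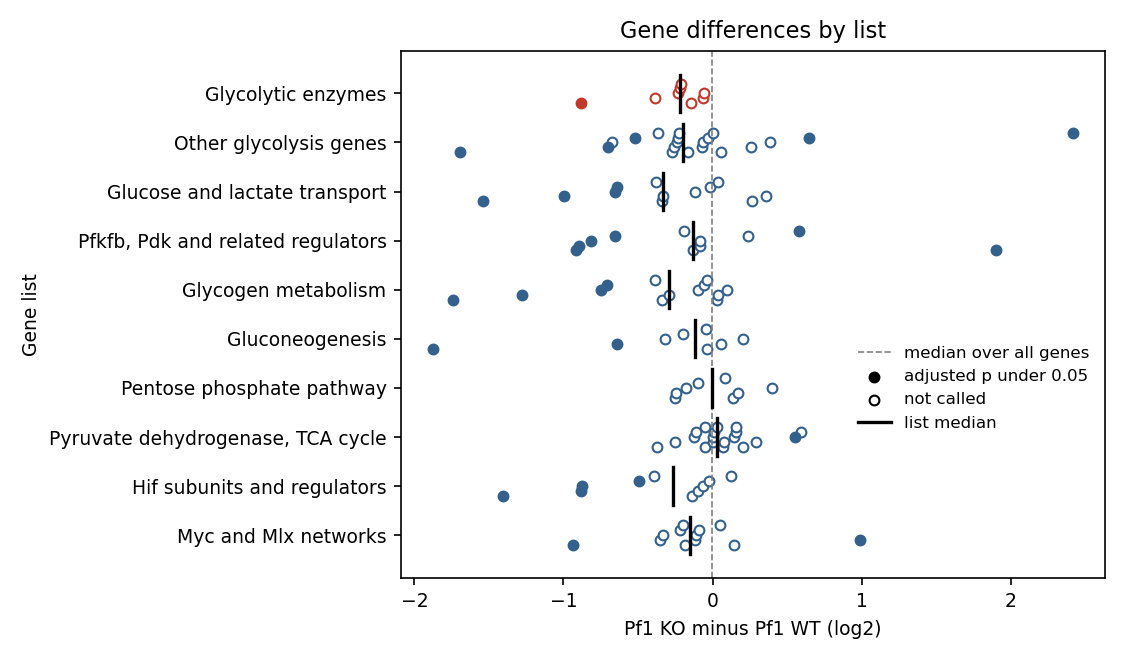
Each point is 1 gene, placed by Pf1 KO minus Pf1 WT (log2), in 10 lists. Filled points passed an adjusted p under 0.05, black bars are list medians and the dashed line is the median over all genes. The list of the 8 enzymes has its median at -0.22, that of glucose and lactate transport at -0.34 and that of the tricarboxylic acid cycle at 0.030.

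Regulators known to act on these promoters, and genes that control those regulators, were read from the same fit. Of 10 Hif subunits and regulators, 4 fell, none rose and 6 did not pass, with a median of -0.26. Among all genes, 6.95% were called lower and 5.21% higher. The subunit Arnt, the partner that Hif needs on DNA, fell 1.41-fold (-0.50 ± 0.0805 SE, limma adjusted p = 0.0277). The prolyl hydroxylases Egln1 (-0.88 ± 0.105 SE) and Egln3 (-1.41 ± 0.251 SE) and the ubiquitin ligase subunit Vhl (-0.87 ± 0.169 SE), which together mark Hif for destruction, also fell. Hif1a itself was not called (-0.39 ± 0.14 SE, limma adjusted p = 0.143). In the Myc and Mlx networks, Max rose (0.99 ± 0.16 SE, limma adjusted p = 0.0274), Mxi1 fell (-0.94 ± 0.139 SE, limma adjusted p = 0.0241) and 10 of 12 genes did not pass, among them Myc (-0.088 ± 0.09 SE, limma adjusted p = 0.596).

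The Phf12 transcript and other marker lists gave the setting of these values. Phf12 probe set 1434922_at was lower in the Pf1 KO lines (-0.37 and -0.41 in Pf1 KO lines 2 and 4, against 0.56 and 0.37 in Pf1 WT lines 5 and 6), and 1453579_at was not (0.012). The Phf12 gene mean over both was not called (-0.42, limma adjusted p = 0.0504). The labels do not say which part of the gene was deleted, so neither probe set need check the genotype. Because levels were removed, it could not be checked which fibroblast markers were present. Of 13 such markers 7 fell, with a median of -0.52, and of 10 smooth muscle markers 7 rose, with a median of 0.68. Among all genes, 6.95% were called lower and 5.21% higher. Macrophage markers had median values of -0.25 and 0.40 in Pf1 KO lines 2 and 4, against 0.49 and -1.04 in Pf1 WT lines 5 and 6, so that Pf1 WT line 6 was the lowest, and 0 of 10 were called by limma, also at an unadjusted p under 0.05. Of 8 epithelial markers, Krt8 (2.42) and Cldn4 (1.66) rose and Krt19 fell (-0.39), with a median of 0.22. Of the 8, 6 were higher in both Pf1 KO lines without overlap, which 28.7% of all genes also showed. Of 8 endothelial markers, Emcn rose (1.85) and Tek fell (-0.72), with a median of -0.029. Limma called 0 of 6 erythroid markers, with 1 lower at an unadjusted p under 0.05 and a median of -0.046. The part of any of these in the enzyme differences was not tested. The 3′ minus 5′ difference of the Gapdh and Actb control probe sets, lay between -0.023 and 0.071 over all arrays. Since each control probe set was centred too, these values compare the arrays with one another and do not measure RNA integrity.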

How the data were processed

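RNA from 4 mouse embryonic fibroblast lines was hybridised to Affymetrix arrays. The authors deposited log2 values, which per the submitters' processing notes came from Affymetrix Expression Console and RMA (no version stated); RMA gives the log base. The 45101 probe sets matched the annotation of a larger array of the same family than the series text names. The median over the arrays was 0 within 1e-06 for 100% of probe sets, a centring that the labels do not describe. The number of arrays limits the precision. Promoter windows and gene order came from RefSeq tables of GRCm38.p6, and no genome sequence was read.

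Of the probe sets, 34958 named 1 gene, 932 several and 9160 non-control ones none; 64 were controls. Symbols were updated through Entrez identifiers (34754 matched RefSeq of GRCm38.p6, 0 changed). Gene values are means over probe sets naming 1 gene, controls included where they name one (Gapdh). Fits over genes and over non-control probe sets used limma 3.58.1 (lmFit, eBayes) in R 4.3.3, with no covariates. There were 2 residual degrees of freedom, and 3.04 prior ones in the gene fit. The gene fit was also run on simulated data with independent genes, and its recovery is not given here. Alternatives were other ways to combine probe sets, 2 normalisations, array weights, robust eBayes, no moderation and each line left out. Leaving out _x_at and _s_at probe sets was added after seeing the data.

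Named genes were the 8 measured enzymes, Phf12, called genes of the other glycolysis list, up to 4 called genes with the smallest p per other list, and the 5 nearest profiles. Any other gene is named with its value already seen. The enzymes and all lists were chosen with earlier results of these data known.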

Additional observations from a re-analysis of the deposited data

How the results depend on the processing

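Pfkp was the enzyme called lower and no enzyme was called higher under every alternative that called any; its difference lay between -1.05 and -0.72 over all of them. The number of enzymes called lower was 2 (Pfkp and Tpi1) after quantile normalisation and after setting array medians and spreads equal, and 0 without moderation of the variances, where ordinary least squares (lmFit without eBayes, 2 degrees of freedom) called 0 of 18194 genes (3574 at an unadjusted p under 0.05). Leaving out each line in turn (1 residual degree of freedom remains), between 0 and 1 enzymes, 0 and 0 of their probe sets, 0 and 1 other glycolysis genes lower and 0 and 1 higher were called, while limma called 0, 321, 1 and 0 genes overall without Pf1 KO line 2, Pf1 KO line 4, Pf1 WT line 5 and Pf1 WT line 6. The median over the enzymes then lay between -0.24 and -0.14. It was -0.14 without Pf1 KO line 2, where Pgam1 turned to 0.00016 (-0.12 to 0.00016 over the 4 lines left out). In the list of other glycolysis genes, which includes Pgam5, 3 lower and 2 higher became 0 and 0 without moderation. They became 1 and 1 with only plain _at probe sets, which leave 4 of the 8 enzymes. With the median over probe sets 1 was higher, and with either of the 2 normalisations 4 were lower (Pfkm added). The cause was not tested. Without _x_at and _s_at probe sets 7 enzymes were measured and Pfkp was again the one called (limma). The genotype difference in Pfkp minus Pfkl was -0.60 after quantile normalisation and -0.72 with the median over probe sets, the 2 alternatives run for it. Centred values give no signal over background, so dim probe sets could not be set apart. No paired analysis was possible because no line number occurs in both genotypes.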
